A study of Mus musculus with 8 samples.

Results

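The growth hormone receptor to STAT5 and IGF1 axis was followed in mouse liver through 10 genes taken by symbol from the 25078 genes of the deposited count table. They were *Ghr*, *Jak2*, *Stat5a*, *Stat5b*, *Socs2*, *Cish*, *Bcl6*, *Cux2*, *Igf1* and *Igfals*. All 10 were found and all 10 passed the filter on low counts. RNA sequencing covered livers of 8 male C57/BL6 mice, each kept for 25 weeks on a diet high in fat, fructose and cholesterol. Of these mice, 3 carried a loss of 1 copy of *Midn* (hemizygotes by genotype label, Het by title) and 5 were wild type. Both groups had the diet, no group on other food was compared, and the age of the mice was not given in the labels. Per the design text the knockout was global, not limited to liver cells, and heterozygotes were used because most homozygous embryos died. Which part of *Midn* was deleted is not in the labels.

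*Midn*, which encodes the nuclear proteasome adaptor midnolin, stood at 60.4, 39.1 and 51.7 CPM (TMM-normalised counts at equal library size) in livers 1 to 3 of the mice labelled heterozygous. It stood at 68.7, 39.8, 71.5, 41.7 and 29.3 CPM in wild-type livers 1 to 5. The groups overlapped fully, so the targeted gene did not separate the labels, and the first group is called het-labelled throughout. Library totals ran from 17508221 to 24916239 counts. The share of *Rpph1*, a ribonuclease P RNA without a poly(A) tail, was 0.229 to 0.399% in het-labelled livers. It was 0.304 and 0.331% in wild-type livers 3 and 1, against 0.673, 0.899 and 1.06% in wild-type livers 4, 2 and 5, so fits against each of these parts of the wild type are also given. The 10 hepatocyte markers, all with counts, summed to between 41403 and 74442 CPM in het-labelled livers and between 41392 and 46814 CPM in wild-type livers. Replicates are separate livers by their titles, but litters and batches are not described, and p-values measure only the spread between these samples.

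Growth hormone is released by the pituitary, in male rodents in pulses. In liver it binds a receptor dimer (GHR), the attached kinase JAK2 phosphorylates STAT5A and STAT5B, and these enter the nucleus and switch on *Igf1*, *Igfals* and the genes of their own inhibitors, *Socs2* and *Cish*. The repressor BCL6 competes with STAT5 for DNA in male mouse liver, and CUX2 is a factor of female mouse liver. Bulk RNA does not show protein phosphorylation, and in bulk tissue fewer cells of a type and less RNA per cell cannot be told apart.

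STAT dimers are known to bind TTCNNNGAA, a palindrome that reads the same on both strands. It was searched in windows from 250 bases before to 50 bases after RefSeq transcript starts (build GRCm38.p6). Of the 10 genes, 9 had at least 1 window, while *Socs2* had none and was not searched. The motif occurred in 8.30% of all 32851 windows, at least 2 times in 0.457% and at least 3 times in 0.0335%. Among the 9 genes searched, it lay in windows of *Cish*, *Bcl6* and *Igfals*, and in 5 of 16 windows in all. The windows with the most matches, those of *Cish* and *Bcl6*, are shown together with the 2 of 3 *Igfals* windows that held a match. Capitals mark the motif. The *Cish* window lies on the plus strand at chr9:107296409-107296708. The *Bcl6* window lies on the minus strand at chr16:23981234-23981533, at a RefSeq start inside the gene. The *Igfals* windows shown lie on the plus strand at chr17:24877594-24877893 and chr17:24877981-24878280, and the one not shown, at chr17:24878497-24878796, held 0 matches.
*Cish*: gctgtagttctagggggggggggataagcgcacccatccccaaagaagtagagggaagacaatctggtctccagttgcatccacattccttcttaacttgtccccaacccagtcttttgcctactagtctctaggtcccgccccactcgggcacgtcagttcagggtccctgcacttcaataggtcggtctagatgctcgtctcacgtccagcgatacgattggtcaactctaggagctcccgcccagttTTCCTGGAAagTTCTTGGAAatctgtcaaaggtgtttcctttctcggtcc
*Bcl6*: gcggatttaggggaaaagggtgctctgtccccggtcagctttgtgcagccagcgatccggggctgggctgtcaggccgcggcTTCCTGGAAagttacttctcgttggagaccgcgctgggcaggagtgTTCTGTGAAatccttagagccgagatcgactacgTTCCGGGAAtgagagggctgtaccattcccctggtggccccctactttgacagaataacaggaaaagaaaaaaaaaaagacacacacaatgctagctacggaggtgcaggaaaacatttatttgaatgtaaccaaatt
*Igfals* first window: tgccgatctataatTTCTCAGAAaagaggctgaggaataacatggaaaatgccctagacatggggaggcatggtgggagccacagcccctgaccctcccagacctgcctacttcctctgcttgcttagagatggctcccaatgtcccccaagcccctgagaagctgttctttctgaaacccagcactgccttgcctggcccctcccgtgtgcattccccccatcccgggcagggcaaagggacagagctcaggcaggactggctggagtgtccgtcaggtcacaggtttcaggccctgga
*Igfals* second window: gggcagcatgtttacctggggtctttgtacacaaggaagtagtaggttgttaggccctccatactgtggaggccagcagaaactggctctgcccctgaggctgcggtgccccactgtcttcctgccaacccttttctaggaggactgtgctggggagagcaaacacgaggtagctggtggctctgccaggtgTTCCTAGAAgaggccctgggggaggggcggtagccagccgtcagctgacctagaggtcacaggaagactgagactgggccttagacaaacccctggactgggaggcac
Counted from 1 at the 5′ end of each window, the *Cish* motifs began at bases 251 and 262, so that both lay at or just after the transcript start. Those of *Bcl6* began at bases 83, 129 and 163, all before the start. The *Igfals* motifs began at base 15 of the first and base 193 of the second window. The other *Bcl6* window, at the outer start, held 1 match. A match is a run of letters and was not tested for binding here.

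Per exon length, *Ghr* and *Igf1* were the most abundant of the 10 transcripts. In the authors' RPKM (counts scaled to exon length and library), *Ghr* had 158 ± 27.9 in het-labelled livers and 102.0 ± 29.4 in wild-type livers (SD, n = 3 and n = 5). *Igf1* had 104 ± 17.5 RPKM in het-labelled livers and 97.5 ± 13.7 RPKM in wild-type livers. The 2 did not keep their order, with *Ghr* above *Igf1* in 5 of 8 livers, in 3 of 3 het-labelled and 2 of 5 wild-type ones. Every other gene stood below *Igf1* in all 8 livers. *Igfals*, *Jak2*, *Socs2*, *Stat5b*, *Bcl6*, *Stat5a* and *Cish* followed with means over the 8 livers of 12.8, 10.4, 8.95, 8.05, 5.61, 4.35 and 3.10 RPKM, and no neighbours in that order kept it in all 8. *Cux2*, at a mean of 0.211 RPKM, was below *Cish* in all 8. *Socs2* above *Stat5b* held in 3 of 5 wild-type livers and 0 of 3 het-labelled ones.

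None of the 10 genes passed edgeR's quasi-likelihood test of het-labelled against wild-type livers (Benjamini-Hochberg adjusted over 14438 genes, threshold 0.05), where 0% of all genes passed. *Stat5a*, *Igfals* and *Ghr* had an unadjusted p under 0.05, all on the higher side, which is 3 of 10 against 10.3% of all genes, and on the lower side it was 0 of 10 against 5.43%. The 3 became 1 with library size alone, without het-labelled liver 1 and without het-labelled liver 3. Over all genes those on the higher side also fell, from 1487 to 427, 573 and 631 in the same order. *Socs2* joined on the lower side without wild-type liver 4 or 5, where 876 and 788 of all genes were lower, beside 784 with all livers. *Stat5a* alone had groups that did not overlap, with the het-labelled livers above, as 7.54% of all genes had; the reverse held for 0 of the 10 and 2.32% of all genes. The median log2 fold change of the 10 was 0.19, beside 0.0044 for all genes tested, and −0.012 beside −0.18 with library size as the only scaling. It was −0.084 without het-labelled liver 1 and 0.32 without het-labelled liver 2. DESeq2 passed 0 of the 10 as well, with 1.22% of all genes called. Its unadjusted p was under 0.05 for the same 3 on the higher side (6.96% of all genes) and for *Socs2* on the lower side (7.17%).

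**Figure D1:**
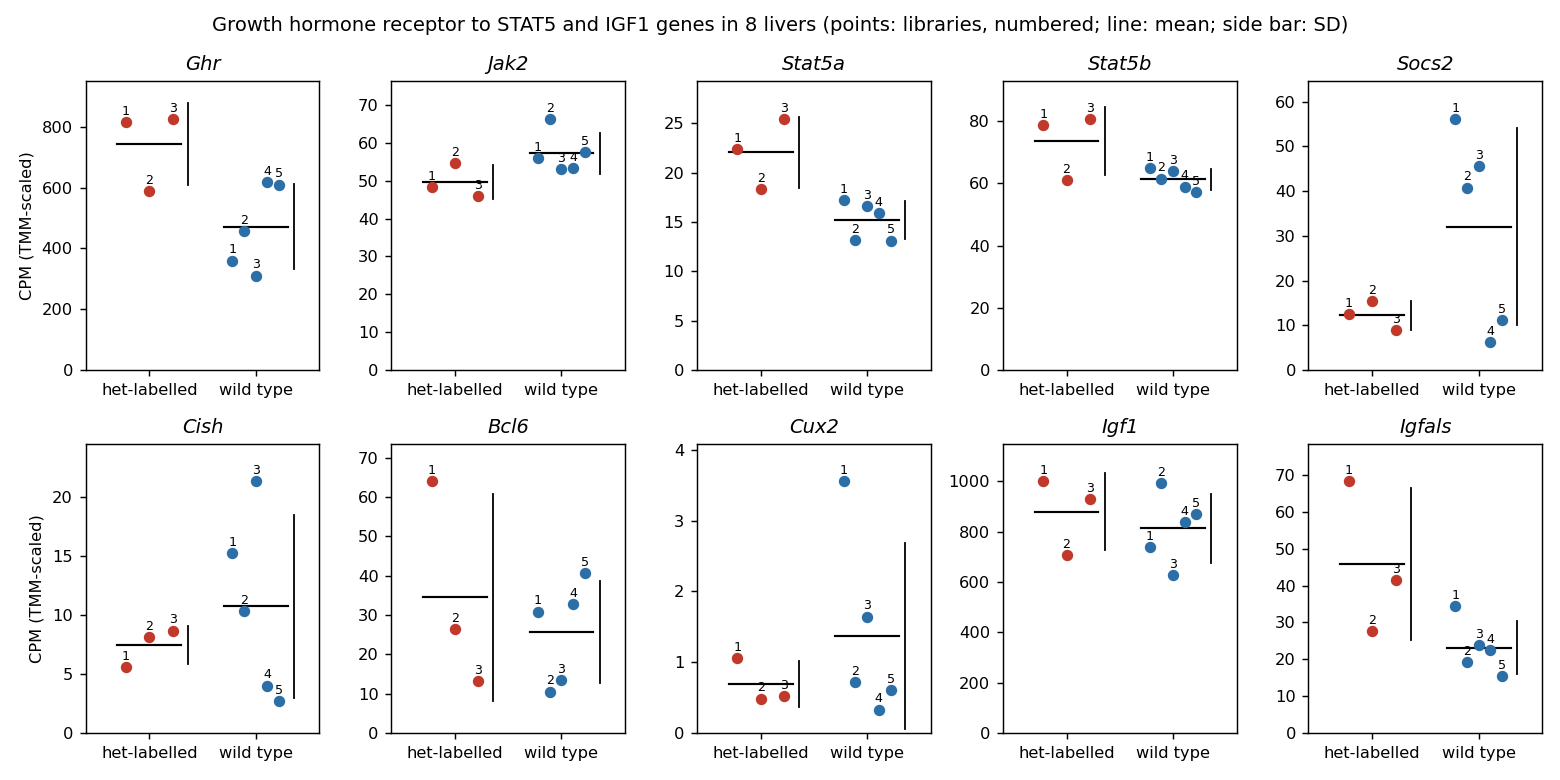
CPM of the 10 genes in each liver, with het-labelled livers (red) left of wild-type livers (blue), numbered by replicate, each axis starting at 0. Horizontal lines are means and side bars SDs; *Stat5a* has all 3 het-labelled livers above all 5 wild-type ones, while *Socs2* and *Cish* spread widely among the wild-type livers.

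*Ghr* (chromosome 15, 3317755 to 3583352, minus strand, mm10) encodes the receptor, and in mice also a soluble binding protein from a spliced form that gene counts do not part from it. Het-labelled livers 1 to 3 had 816, 589 and 826 CPM. Wild-type livers 1 to 5 had 360.3, 458, 311, 618 and 609 CPM. Het-labelled livers 1 and 3 lay above every wild-type liver, and het-labelled liver 2 lay below wild-type livers 4 and 5. *Ghr* differed by 0.66 on the log2 scale (SE 0.27, 95% interval 0.05 to 1.27; edgeR adjusted p = 0.294). *Jak2* (chromosome 19, 29251803 to 29313092, plus strand), the kinase bound to the receptor, varied little: 48.3, 54.5 and 45.9 CPM in het-labelled livers and 55.95, 66.3, 53.0, 53.4 and 57.4 CPM in wild-type livers. Het-labelled livers 1 and 3 were the lowest of the 8. Its log2 fold change was −0.21 (SE 0.13, 95% interval −0.50 to 0.09; edgeR adjusted p = 0.437).

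The STAT5 genes are neighbours on chromosome 11, *Stat5b* at 100780731 to 100850581 on the minus strand and *Stat5a* at 100859351 to 100885169 on the plus strand. Of the 50-base stretches of their GENCODE M21 transcripts, 8.21% of those of *Stat5a* also occurred in *Stat5b* and 10.99% of those of *Stat5b* in *Stat5a*, so a part of their reads cannot be assigned to 1 of the pair with certainty. *Stat5a* had 22.4, 18.3 and 25.4 CPM in het-labelled livers and 17.2, 13.1, 16.6, 15.9 and 13.1 CPM in wild-type livers. All 3 het-labelled livers exceeded all 5 wild-type ones, by little in het-labelled liver 2. *Stat5a* differed by 0.54 on the log2 scale (SE 0.16, 95% interval 0.17 to 0.90; edgeR adjusted p = 0.259), and the authors' RPKM gave p = 0.0357, the smallest possible over 56 assignments, when permuted exactly and two-sided. *Stat5b*, which is known as the main STAT of male growth hormone responses in mouse liver, stood above *Stat5a* per length in all 8 livers. It had 78.8, 61.0 and 80.7 CPM in het-labelled livers and 64.8, 61.5, 63.9, 58.9 and 57.1 CPM in wild-type livers. Het-labelled livers 1 and 3 again lay above every wild-type liver, and het-labelled liver 2 lay inside their range. For *Stat5b* the log2 difference was 0.26 (SE 0.13, 95% interval −0.04 to 0.57; edgeR adjusted p = 0.357). Over the 10 genes the permutation test of RPKM gave p from 0.0357 for *Stat5a* to 0.643 for *Bcl6*, and it was exact and two-sided in each. Groups that do not overlap always give the smallest p, so for *Stat5a* it only restates that separation. These p were not adjusted over the 10 genes.

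Markers of several cell types moved with these genes. The sum of the hepatocyte markers was 74442, 41403 and 63423 CPM in het-labelled livers 1 to 3, and 46814, 44860, 41952, 45020 and 41392 CPM in wild-type livers 1 to 5. Het-labelled livers 1 and 3 were thus the highest in this sum as in *Ghr*, *Stat5a*, *Stat5b* and *Igfals*. At an unadjusted p under 0.05, 2 of the 10 hepatocyte markers stood higher and 0 lower (median log2 fold change 0.36). Over all genes 10.3% stood higher and 5.43% lower by that threshold, and the next marker counts are to be read beside these shares. The 8 endothelial markers summed to 482, 347 and 477 CPM in het-labelled livers and to between 312 and 383 CPM in wild-type livers, again highest in het-labelled livers 1 and 3 (1 higher, 0 lower). The 9 bile duct markers summed to 149, 755 and 160.35 CPM in het-labelled livers and to between 409 and 914 CPM in wild-type livers, lowest in the same livers 1 and 3 (0 higher, 0 lower, median −1.03). The 9 stellate and myofibroblast markers summed to 1055, 1635 and 790 CPM in het-labelled livers 1 to 3 and to between 1184 and 1765 CPM in wild-type livers. That sum was also lowest in het-labelled livers 1 and 3, though 2 of the 9 markers stood higher and 0 lower (median −0.069). The part of these cell types in the differences of the genes was not tested.

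By the SD of log2 CPM among wild-type livers, the feedback genes *Socs2* and *Cish* varied most of the 10. *Socs2* (chromosome 10, 95411490 to 95416857, minus strand) encodes an adaptor that marks the growth hormone receptor for degradation. It had 12.5, 15.4 and 8.91 CPM in het-labelled livers and 56.2, 40.8, 45.6, 6.32 and 11.3 CPM in wild-type livers. Wild-type livers 1, 2 and 3 were high, wild-type liver 4 was the lowest of all and wild-type liver 5 lay within the het-labelled range. Among wild-type livers the highest level was 8.89 times the lowest, and 1.34% of all genes tested had a larger SD of log2 CPM there. In het-labelled livers that ratio was 1.73. *Cish* (chromosome 9, 107296659 to 107302784, plus strand), whose protein docks on phosphorylated receptor and blocks STAT5 recruitment, had 5.58, 8.13 and 8.67 CPM in het-labelled livers. It had 15.3, 10.3, 21.3, 4.01 and 2.71 CPM in wild-type livers, where 2.24% of all genes had a larger SD. The same 3 wild-type livers were the highest of the 8 and the other two the lowest, with the het-labelled livers between them.

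The log2 fold change of *Socs2* was −1.39 (SE 0.66, 95% interval −2.89 to 0.11; edgeR adjusted p = 0.341) and that of *Cish* −0.53 (SE 0.60, 95% interval −1.90 to 0.83; edgeR adjusted p = 0.642). For *Cish* the value was −0.16 without wild-type liver 3 and −0.78 without wild-type liver 5. Neither passed, and both intervals held 0. *Ghr* stood the other way in the same livers: wild-type livers 1, 2 and 3, high in *Socs2*, had the 3 lowest *Ghr* levels of the 8. T and NK cell markers moved with *Socs2* and *Cish*, which lymphocytes also express. Over the 9 markers measured they summed to 8.34, 12.6 and 7.34 CPM in het-labelled livers and to 24.1, 14.8, 23.2, 5.77 and 9.93 CPM in wild-type livers, highest in wild-type livers 1, 2 and 3. None of the 9 was at 0 in all livers, and 1 had an unadjusted p under 0.05 (on the lower side, beside 5.43% of all genes). The part of these cells in the *Socs2* and *Cish* levels was not tested. On the first principal component of all genes (48.9% of variance) wild-type livers 1, 2 and 3 lay at −43.1, −27.6 and −71.8. Het-labelled liver 2 lay at −10.5 and the other 4 livers lay above 0, so the split of *Socs2* followed a split of the whole transcriptome, whose part in it was not tested.

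**Figure D2:**
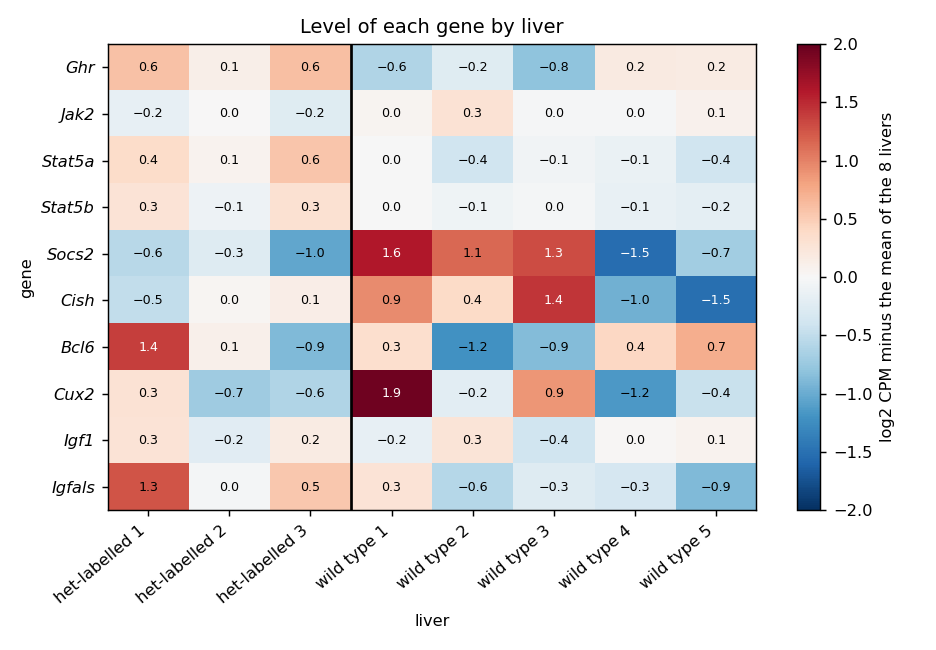
Log2 CPM of each gene minus its mean over the 8 livers, with het-labelled livers left of the black line and wild-type livers right of it. *Socs2* and *Cish* were above their means in wild-type livers 1, 2 and 3 and below them in wild-type livers 4 and 5, where *Ghr* showed the reverse. *Stat5b*, *Jak2* and *Igf1* kept closest to their means.

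*Bcl6* (chromosome 16, 23965050 to 23988852, minus strand) encodes the repressor that holds down female-type genes in male mouse liver. It had 63.9, 26.4 and 13.2 CPM in het-labelled livers and 30.8, 10.5, 13.5, 32.8 and 40.6 CPM in wild-type livers. Het-labelled liver 1 was the highest and het-labelled liver 3 among the lowest 3, so that the het-labelled range (4.83-fold) was wider than that of the wild type (3.87-fold). The difference of *Bcl6* was 0.43 on the log2 scale (SE 0.56, 95% interval −0.83 to 1.69; edgeR adjusted p = 0.684), −0.37 without het-labelled liver 1 and 0.82 without het-labelled liver 3. *Bcl6* is also a gene of B cells. The 9 B and plasma cell markers measured summed to between 131 and 161 CPM in het-labelled livers and between 132 and 205 CPM in wild-type livers. Of the 9, 1 had an unadjusted p under 0.05, on the lower side, beside 5.43% of all genes. *Cux2* (chromosome 5, 121860216 to 122049851, minus strand), the factor of female liver, had few counts, with 23, 9 and 11 counts in het-labelled livers and 80, 14, 44, 6 and 10 counts in wild-type livers. Wild-type livers 1 and 3 were the highest, the other 6 lay between 0.330 and 1.06 CPM, and the ratio of highest to lowest among wild-type livers, 10.8, was the largest of the 10 genes. *Cux2* had a log2 fold change of −0.996 (SE 0.75, 95% interval −2.70 to 0.71; edgeR adjusted p = 0.504), and −0.29 without wild-type liver 1.

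The endocrine outputs parted from each other. *Igf1* (chromosome 10, 87858265 to 87937047, plus strand), the hormone that liver sends into blood on growth hormone stimulation, had 999.6, 708 and 930.3 CPM in het-labelled livers. It had 738, 992, 626, 837 and 871 CPM in wild-type livers, and the groups overlapped almost completely. Its log2 fold change was 0.11 (SE 0.21, 95% interval −0.36 to 0.59; edgeR adjusted p = 0.784), and its highest level was 1.596 times its lowest over the 8 livers, against 8.89 for *Socs2*. *Igfals* (chromosome 17, 24877844 to 24882011, plus strand), whose product holds IGF1 in a stable complex in plasma, had 68.3, 27.7 and 41.5 CPM in het-labelled livers and 34.5, 19.2, 23.9, 22.5 and 15.4 CPM in wild-type livers. Het-labelled livers 1 and 3 exceeded every wild-type liver, while het-labelled liver 2 lay below wild-type liver 1. *Igfals* had a log2 fold change of 0.99 (SE 0.32, 95% interval 0.27 to 1.70; edgeR adjusted p = 0.265), and 0.59 without het-labelled liver 1. The difference between the responses of *Igfals* and *Igf1* was not itself tested.

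Against parts of the wild type the genes gave different values; the het-labelled livers are shared by both fits, which are therefore not independent. Against wild-type livers 1 and 3, low in *Rpph1*, 0 of the 10 passed edgeR, with 0.143% of all genes called. There *Socs2* differed by −2.11 (SE 0.24; edgeR adjusted p = 0.0593), *Cish* by −1.36 (SE 0.24; adjusted p = 0.0670), *Cux2* by −1.96 (SE 0.52; adjusted p = 0.0835) and *Ghr* by 1.08 (SE 0.22; adjusted p = 0.0672) on the log2 scale. These 4 had an unadjusted p under 0.05, as 31.6% of all genes did (16.7% higher, 14.9% lower). DESeq2 called the same 4 and 16.3% of all genes, limma-voom called *Socs2* and 0.232%, and edgeR without het-labelled liver 2 added *Jak2* and *Stat5a* to the 4, with 37.2% of all genes called. Against wild-type livers 2, 4 and 5, high in *Rpph1*, *Stat5a* (0.60, SE 0.16; edgeR adjusted p = 0.0393) and *Igfals* (1.21, SE 0.31; adjusted p = 0.0384) were higher and passed, 2 of 10 where 8.4% of all genes were called higher and 10.5% lower (18.9% in all). DESeq2 and limma-voom called the same pair, with 28.3 and 20.4% of all genes called. So did edgeR without wild-type liver 4 (19.9% of all genes), while *Stat5b* passed as well without het-labelled liver 2 (29.9%). In that fit *Socs2* differed by −0.72 (SE 0.63), *Cish* by 0.34 (SE 0.47) and *Cux2* by 0.27 (SE 0.51). Wild-type liver 2 alone gave *Socs2* its sign there: without it the value was 0.44. Both calls were lost when het-labelled liver 1, het-labelled liver 3, wild-type liver 2 or wild-type liver 5 was left out, where between 0% and 3.91% of all genes were called.

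**Figure D3:**
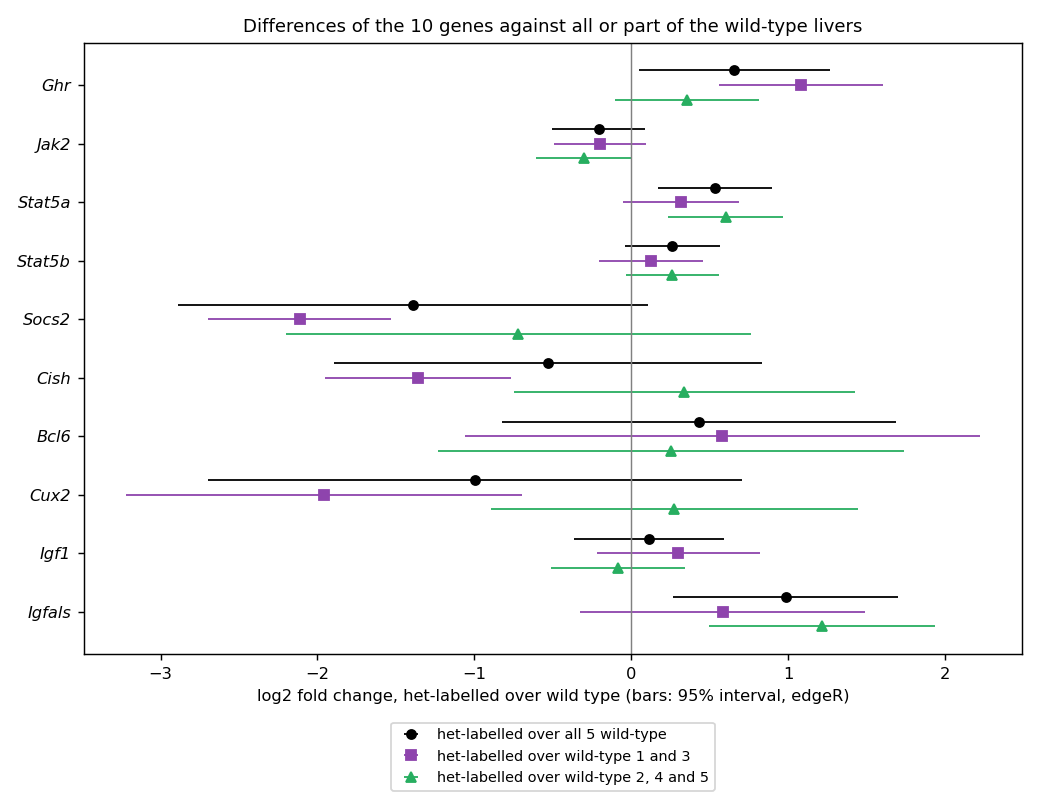
Log2 fold changes of the 10 genes with 95% intervals from edgeR, het-labelled livers against all 5 wild-type livers (black), wild-type livers 1 and 3 (purple) and wild-type livers 2, 4 and 5 (green). *Ghr*, *Stat5a*, *Stat5b*, *Bcl6* and *Igfals* were above 0 and *Jak2* and *Socs2* below it in all 3 comparisons under TMM, while *Cish*, *Cux2* and *Igf1* changed sign. Against wild-type livers 1 and 3 with library size alone, *Stat5a* was at −0.0096 and *Stat5b* at −0.20.

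Other genes of cytokine and JAK-STAT signalling had values near those of all genes. Of 26 such genes tested, 0 passed. An unadjusted p under 0.05 was found for 0 on the higher and 2 on the lower side (0% and 7.69%, beside 10.3 and 5.43% of all genes). Their median log2 fold change was 0.029, −0.17 with library size alone, −0.041 without wild-type liver 2 and −0.029 without het-labelled liver 1. The lower ones were the inhibitor genes *Socs5* (14.1 ± 3.59 CPM in het-labelled and 20.6 ± 3.28 CPM in wild-type livers; −0.55, edgeR adjusted p = 0.273) and *Socs1*, at a mean of 0.273 CPM in het-labelled and 0.621 CPM in wild-type livers. *Socs3*, the inhibitor induced by STAT3, had 5.48, 7.75 and 6.004 CPM in het-labelled livers and 9.73, 17.1, 13.6, 6.26 and 7.04 CPM in wild-type livers, again highest in wild-type livers 1, 2 and 3. *Ptpn11*, the phosphatase SHP2, had 98.8 ± 0.945 CPM in het-labelled and 79.4 ± 11.2 CPM in wild-type livers, with every het-labelled liver above every wild-type one (0.31; edgeR adjusted p = 0.328).

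Among 14 other genes of the IGF axis tested, 0 passed (median −0.21). At an unadjusted p under 0.05, 1 was on the higher and 2 on the lower side, beside 10.3 and 5.43% of all genes. Without het-labelled liver 3 the median was 0.0057 and 0 were on the lower side, while without het-labelled liver 2 it was −0.43 and 4 were. Over all genes 784 were on the lower side with all livers, 246 without het-labelled liver 3 and 1633 without het-labelled liver 2. *Igfbp4*, an inhibitory binding protein, had 1180 ± 251 CPM in het-labelled and 728 ± 145 CPM in wild-type livers (0.70, SE 0.23; edgeR adjusted p = 0.265). *Igfbp2*, a binding protein that is high when growth hormone or insulin action is low, had 118, 117 and 83.9 CPM in het-labelled livers and 286, 281, 278, 98.6 and 152 CPM in wild-type livers. As with *Socs2*, wild-type livers 1, 2 and 3 were high and wild-type livers 4 and 5 were near the het-labelled ones (−1.04, SE 0.37; edgeR adjusted p = 0.268). The stanniocalcin genes *Stc1* and *Stc2*, which encode blockers of an IGF-binding-protein protease, averaged 0.405 and 0.479 CPM in het-labelled and 1.13 and 1.38 CPM in wild-type livers.

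Genes that growth hormone pulses keep up in male mouse liver through STAT5B lay mostly on the higher side in het-labelled livers, though 0 passed in edgeR: 13 of 18 tested had an unadjusted p under 0.05 on the higher side and 0 on the lower, beside 10.3 and 5.43% of all genes, and their median was 1.41. In DESeq2 9 of the 17 with an adjusted p were called higher, where 0.694% of all genes were. This direction was known when the list was drawn up and is no separate evidence. *Susd4*, a complement regulator, had 24.6, 5.92 and 20.5 CPM in het-labelled livers. In wild-type livers it had 2.26, 0.309, 1.49, 4.12 and 2.05 CPM (3.06, SE 0.64, DESeq2 adjusted p = 0.00221). *Cyp2u1*, a fatty acid hydroxylase, had 69.9, 35.8 and 53.5 CPM in het-labelled livers and 25.1, 10.9, 17.1, 26.2 and 16.0 CPM in wild-type livers (1.48, SE 0.31; DESeq2 adjusted p = 0.00739). *Slco1a1* ran from 147 to 661 CPM in het-labelled livers and from 8.22 to 68.4 CPM in wild-type livers. *Hsd3b5* had 79.0, 3.93 and 3.57 CPM in het-labelled livers 1 to 3 and from 0 to 0.412 CPM in wild-type livers. DESeq2 gave *Hsd3b5* no p-value, so it was not among the 17. Reads of *Hsd3b5* may be shared with close *Hsd3b* copies, and those of *Cyp2a4* with *Cyp2a5*. *Mup20* was the 1 of the 18 with a value below 0, at −0.54, though near-identical *Mup* copies make single values uncertain.

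Of the female-liver genes, 10 of 18 passed the filter, with 1 higher and 4 lower by the same unadjusted threshold, beside 10.3 and 5.43% of all genes (median −0.42). The median was −0.053 without wild-type liver 2, where 2 were lower, and 0.02 without wild-type liver 5, each time over 9 genes, and 2 were also lower without het-labelled liver 1. Over all genes 784 were lower with all livers, 501 without wild-type liver 2 and 221 without het-labelled liver 1. *Cyp2a4*, a steroid hydroxylase, and *Abcd2*, a peroxisomal transporter, were below every wild-type liver in all 3 het-labelled ones, at 0.737, 5.65 and 1.00 CPM for *Cyp2a4* in het-labelled livers against 11.3 to 26.1 CPM in wild-type livers, and DESeq2 called both lower (adjusted p = 0.00115 and 0.00994), as it did 0.528% of all genes. *Cyp17a1*, a steroidogenic P450, had 9.94 ± 3.05 CPM in het-labelled and 23.7 ± 12.6 CPM in wild-type livers. Of the 10 tested, 5 had a log2 fold change above 0. Among these 5, *Tox*, a nuclear factor of female liver, had 10.6 ± 1.58 CPM in het-labelled and 7.18 ± 1.43 CPM in wild-type livers (0.57, edgeR adjusted p = 0.269).

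Hepatocyte transcription factors that share sites with STAT5 had 5 of 12 on the higher side of that threshold, beside 10.3% of all genes, and 0 on the lower (median 0.34). The 5 became 0 without het-labelled liver 1, 2 without het-labelled liver 3 and 1 with library size alone. Over all genes those on the higher side also fell, from 1487 to 573, 631 and 427 in the same order. *Rxra*, the partner of many nuclear receptors, averaged 480.15 ± 93.4 CPM in het-labelled and 297 ± 74.0 CPM in wild-type livers (0.70; edgeR adjusted p = 0.268), and *Cebpb* and *Foxa1* differed by 0.56 and 0.40. Lipid uptake and storage genes that are known to be raised in mouse livers without growth hormone receptor, JAK2 or STAT5 lay on both sides. At an unadjusted p under 0.05, 1 was higher and 2 lower of 10, beside 10.3 and 5.43% of all genes. The median of these 10 was 0.33, and −0.068 without het-labelled liver 3. Lipoprotein lipase *Lpl* (153 ± 68.3 CPM in het-labelled and 356 ± 63.9 CPM in wild-type livers) and the fatty acid carrier *Fabp4* (31.7 ± 3.85 CPM in het-labelled and 76.8 ± 30.7 CPM in wild-type livers) were called lower by DESeq2 with adjusted p of 0.00778 and 0.0187. DESeq2 called 0.528% of all genes lower. The droplet coat genes *Plin4* and *Plin2* differed by 0.87 and 0.47. Macrophages, which express *Lpl* and *Fabp4*, had markers summing to between 626 and 911 CPM in het-labelled livers and between 621 and 1954 CPM in wild-type livers over 10 genes, and their part in these values was not tested. Acute-phase genes had 1 of 15 higher and 0 lower by the same threshold, beside 10.3 and 5.43% of all genes, with a median of 0.25. The higher one was the interleukin-6 receptor gene *Il6ra* (66.6 ± 24.7 CPM in het-labelled and 36.8 ± 9.18 CPM in wild-type livers; 0.86, edgeR adjusted p = 0.265).

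**Figure D4:**
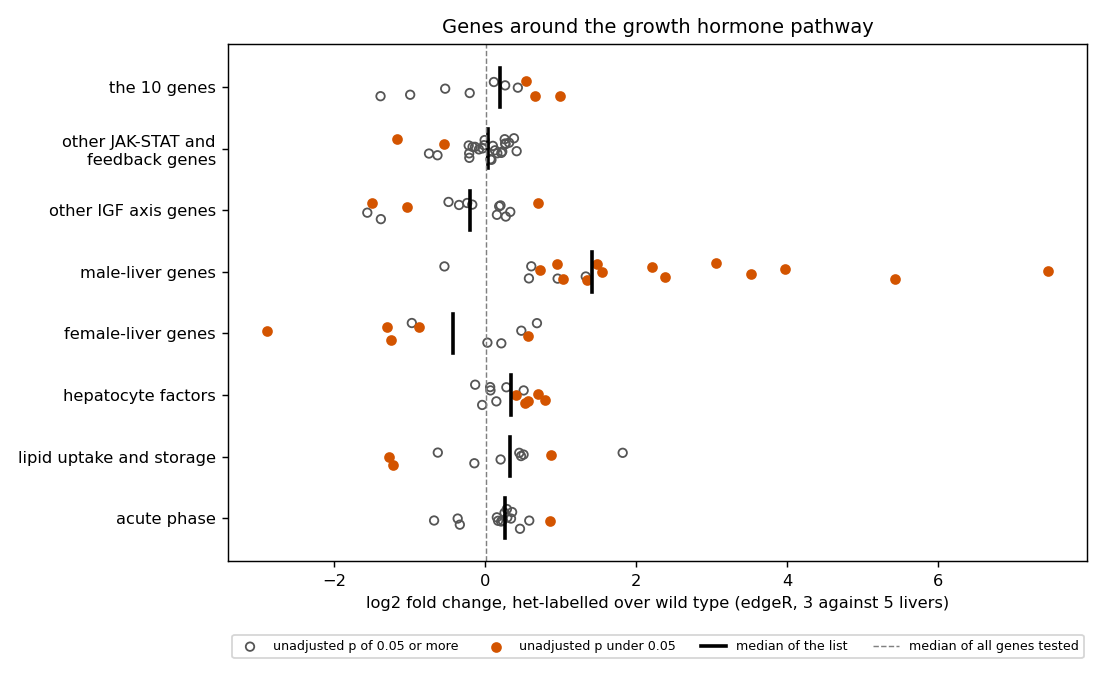
Log2 fold change (edgeR, het-labelled over wild type) of each gene tested in the 8 gene sets, filled where the unadjusted p was under 0.05, with the median of each set as a bar and that of all genes as a dashed line. The male-liver genes lie mostly to the right with a median of 1.41, and the 10 genes of the pathway itself scatter on both sides with a median of 0.19.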

How the data were processed

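Liver RNA of 8 mice was sequenced, with libraries from the KAPA mRNA HyperPrep kit per the labels' protocols. Genome build mm10, HTSeq, STAR and bcl2fastq (2.18.0.12) are named in the submitters' processing notes; whether counting used strand, and the annotation, is not stated there. The authors deposited raw counts per gene and, from them, RPKM values, with total exon length; coordinates are theirs. No member overlapped a gene with counts in the deposited coordinates.

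Genes were kept by filterByExpr (minimum count 10, minimum total 15; 14438 kept). Counts were scaled by TMM and tested with edgeR's robust quasi-likelihood test, two-sided, with Benjamini-Hochberg adjustment over all genes. SE is the log2 fold change over the root of F; intervals are at 95%. Groups came from the genotype label. Promoter windows are RefSeq's. The procedure was tested on simulated counts drawn independently for each gene and liver. These lack the differences shared by many genes between the real livers, so the simulation does not show how the tests behave under them.

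The 10 members, 7 further gene lists (116 symbols, 105 tested) and the split by *Rpph1* were chosen with earlier results of these data known. Named are the members, up to 4 genes per list with the smallest edgeR p, 1 gene most like each member, *Midn* and *Rpph1*, except for 1 gene not reported here; *Mup20* was singled out after its value was seen. Alternatives were DESeq2 and limma-voom, scaling by RLE or by library size alone, a filter at a mean of 1 CPM or none, a fit that was not robust, limma on log2(RPKM + 0.1) or log2(RPKM + 1), a threshold of 0.1, and each library left out. Software comprised Python 3.11.15 with matplotlib 3.10.9, and R 4.3.3 with DESeq2 1.42.0, limma 3.58.1 and edgeR 4.0.16.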

Additional observations from a re-analysis of the deposited data

How the results depend on the processing

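None of the 10 genes passed in the comparison with all 5 wild-type livers under any scaling, tool, filter, threshold or left-out library tried, and 2 passed against wild-type livers 2, 4 and 5. Over all genes 0 passed in edgeR (2271 at an unadjusted p under 0.05), 176 in DESeq2, 21 against wild-type livers 1 and 3 and 2632 against wild-type livers 2, 4 and 5. Of the 105 list genes tested in edgeR, 0 passed there. DESeq2 passed 13 list genes, beside 1.22% of all genes, and 28 passed against wild-type livers 2, 4 and 5, beside 18.9%. Male-liver genes, whose direction was known when that list was drawn up, made up 9 of the 13 and 12 of the 28. Of 190 recomputed log2 fold changes of the 10 genes, 6 changed sign: *Cish* (0.34), *Cux2* (0.27) and *Igf1* (−0.084) against wild-type livers 2, 4 and 5, *Igf1* with library size alone (−0.073) and without wild-type liver 3 (−0.013), and *Bcl6* without het-labelled liver 1 (−0.37). With 1 library left out *Bcl6* ran from −0.37 to 0.82, *Igf1* from −0.013 to 0.25 and *Cish* from −0.78 to −0.16, and *Cish* was −0.26 with limma-voom and −0.20 with limma on log2(RPKM + 0.1). Library size alone moved the median of all genes to −0.18 (by unadjusted p, 427 genes higher and 1198 lower, against 1487 and 784), so part of each such value is that shift. The split was 1148 and 973 with RLE, and 1333 and 1373 in DESeq2. Against wild-type livers 1 and 3 the members called were 0 in edgeR, 1 in limma-voom (0.232% of all genes), 4 in DESeq2 (16.3%) and 0 to 6 with 1 library left out, 6 of them without het-labelled liver 2 (37.2%); with 1 wild-type liver left, it is assumed to vary like the other group. Against wild-type livers 2, 4 and 5 the 2 calls ran from 0 to 3 with 1 library left out. These alternatives within parts of the wild type were chosen after seeing the data. The order of levels held in 2 neighbouring pairs whichever library was left out. The cause of these changes was not tested. Low counts limit *Cux2*. No paired analysis was possible because replicate numbers follow accession order and pair no livers.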

Other observations

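For each of the 10 genes the named gene with the most similar profile of log2 CPM over the 8 livers was sought among the other genes tested. With so few livers and so many genes, high coefficients arise readily, and they are given as a description without a test. The closest were *Pex10* for *Ghr* (Pearson r = 0.995), *Ifit1bl1* for *Jak2* (0.977), *Trappc12* for *Stat5a* (0.997), *Klhdc10* for *Stat5b* (0.981), *Spink5* for *Socs2* (0.987), *Zfp212* for *Cish* (0.985), *Aldh1l2* for *Bcl6* (0.925), *Zfp143* for *Cux2* (0.937), *Pdlim5* for *Igf1* (0.990) and *Cyp4f14* for *Igfals* (0.992). *Cyp4f14*, a P450 that breaks down leukotrienes and vitamin side chains, stood at 177, 78.1 and 122 CPM in het-labelled livers and at 87.3, 58.2, 67.2, 62.0 and 41.5 CPM in wild-type livers, in the same order of livers as *Igfals*.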
